A study of Homo sapiens with 6 samples.

Results

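The genes described here are 35 genes of glycolysis, of glucose and lactate transport and of the response to low oxygen, taken by symbol from a fixed list. Of 25277 gene rows measured, 35 carried one of these symbols, each exactly once. They comprise 15 glycolytic enzymes, 2 lactate dehydrogenases, 4 transporters, 3 regulators of flux and 11 further hypoxia-responsive genes. The RNA came from cells of Jeko and Rec-1, lines of mantle cell lymphoma, a cancer of B cells marked by high cyclin D1. Both lines carried Cas9 with a tet-on vector, and all libraries were taken after 48 h of doxycycline. For each line there was 1 library labelled control, transduced with the empty vector, and 1 library for each of 2 single guide RNAs (sgRNA) against NR4A1, an immediate early nuclear receptor. The 2 guides served as the replicates of a line, nothing in the labels says that libraries came from separate cultures, and p-values therefore measure only the spread between these libraries.

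Glycolysis turns glucose into pyruvate, and lactate dehydrogenase with the lactate exporters lets it run without oxygen. When oxygen falls, prolyl hydroxylases of the EGLN family stop marking the HIF alpha subunits for destruction by VHL, and HIF with its partner ARNT raises many glycolytic genes, their regulators and genes for survival and blood supply. Lymphoma lines in culture are known for a high glycolytic rate, and several steps can be filled by alternative isozymes of tissue-specific expression.

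Genes of this group are known for HIF binding at a short core motif near their start sites, so the promoters of the members that differed most between the lines are shown. Each is 300 bases, from 250 before to 50 after the start, read 5′ to 3′ on the gene's strand, from RefSeq on GRCh38.p14. Capitals mark every match to ACGTG or GCGTG on either strand, which reads CACGT or CACGC on the reverse strand. The palindrome CACGTG, also an E-box of other factors, holds ACGTG on both strands and counts as 2 matches. The first 3 belong to genes far lower where the label reads Rec-1 sgRNA than where it reads Jeko sgRNA, and the other 3 to genes far higher there. The windows are chr10:131981874-131982173 on the minus strand for BNIP3, chr11:10304823-10305122 on the plus strand for ADM, and chr14:33951025-33951324 on the minus strand for EGLN3. They are chr17:28576846-28577145 on the minus strand for ALDOC, chr12:6914330-6914629 on the plus strand for ENO2, and chr3:48556754-48557053 on the minus strand for PFKFB4.
BNIP3: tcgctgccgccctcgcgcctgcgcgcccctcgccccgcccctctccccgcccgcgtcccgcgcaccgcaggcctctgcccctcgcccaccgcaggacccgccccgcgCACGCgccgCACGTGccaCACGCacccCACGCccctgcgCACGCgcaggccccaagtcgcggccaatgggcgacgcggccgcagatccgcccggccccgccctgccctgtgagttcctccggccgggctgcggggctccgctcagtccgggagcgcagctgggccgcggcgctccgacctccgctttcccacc
ADM: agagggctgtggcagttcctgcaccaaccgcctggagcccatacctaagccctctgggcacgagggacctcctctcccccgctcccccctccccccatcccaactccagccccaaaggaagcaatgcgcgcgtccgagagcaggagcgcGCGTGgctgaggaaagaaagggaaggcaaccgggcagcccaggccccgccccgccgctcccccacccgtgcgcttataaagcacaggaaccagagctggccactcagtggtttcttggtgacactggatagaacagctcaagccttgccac
EGLN3: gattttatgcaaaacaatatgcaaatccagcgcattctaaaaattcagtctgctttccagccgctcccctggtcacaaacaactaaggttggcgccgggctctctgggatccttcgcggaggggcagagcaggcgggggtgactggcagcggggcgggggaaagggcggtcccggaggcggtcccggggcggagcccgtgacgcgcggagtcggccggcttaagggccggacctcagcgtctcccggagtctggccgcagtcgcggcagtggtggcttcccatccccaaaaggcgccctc
ALDOC: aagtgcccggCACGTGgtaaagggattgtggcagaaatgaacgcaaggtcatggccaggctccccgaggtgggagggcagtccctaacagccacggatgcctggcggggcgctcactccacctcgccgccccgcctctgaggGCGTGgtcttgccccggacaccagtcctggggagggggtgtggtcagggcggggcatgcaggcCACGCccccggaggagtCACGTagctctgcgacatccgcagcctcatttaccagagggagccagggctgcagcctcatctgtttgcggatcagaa
ENO2: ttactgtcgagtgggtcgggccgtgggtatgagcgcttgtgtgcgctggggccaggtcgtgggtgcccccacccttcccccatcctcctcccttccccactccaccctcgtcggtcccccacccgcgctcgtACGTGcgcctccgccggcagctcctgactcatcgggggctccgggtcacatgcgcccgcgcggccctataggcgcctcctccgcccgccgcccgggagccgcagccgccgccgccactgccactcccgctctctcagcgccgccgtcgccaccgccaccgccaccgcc
PFKFB4: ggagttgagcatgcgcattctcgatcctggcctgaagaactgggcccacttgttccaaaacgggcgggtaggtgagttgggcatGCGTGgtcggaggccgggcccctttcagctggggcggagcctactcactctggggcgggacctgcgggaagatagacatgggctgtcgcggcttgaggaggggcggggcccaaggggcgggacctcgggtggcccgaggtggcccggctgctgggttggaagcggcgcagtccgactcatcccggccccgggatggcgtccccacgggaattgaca

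The BNIP3 window held 6 matches and the ALDOC window 5, 1 palindrome among each. ADM, ENO2 and PFKFB4 each had 1 match, and EGLN3 had 0 in this window. Windows were found for 30 of the 35 members, not for SLC16A1, BNIP3L, VEGFA, SLC2A3 and NDRG1. Of the 59 windows of these 30 genes, 40 held a match (67.8%), against 17012 of 35116 windows of the whole table (48.4%). Some windows of a gene overlap, and they share sequence. By gene, 28 of 30 members had a match in any window, against 14318 of 27305 genes. The members had more windows per gene (59 for 30 genes, against 35116 for 27305), and the number of windows was not matched. A match was present for 8 of 8 members called higher between the lines below, 4 of 5 called lower and 16 of 17 not called. Among these, the calls of PFKFB4, BNIP3, ADM and EGLN3 are a description, for the reason given below with the filter on low values. A match of letters is a description and does not show binding.

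The libraries were compared with each other first, because the Rec-1 labels and the data do not match in full. Across 10322 tested protein-coding genes, which are not independent replicates, log2 values of the library labelled Rec-1 control correlated at 0.988 with the Jeko control. The same values correlated at 0.804 with Rec-1 sgRNA 1 and at 0.811 with Rec-1 sgRNA 2, as labelled. NR4A1 itself was 5.99 FPKM (fragments scaled by transcript length and by the mapped fragments of the library) in the Jeko control, 3.89 with sgRNA 1 and 4.44 with sgRNA 2, and the Rec-1 libraries had 11.6, 27.4 and 12.7 in the same order. It was below the control in Jeko and above it in the libraries labelled Rec-1 sgRNA. Neither difference was called (limma adjusted p = 0.748 in Jeko and 0.391 in Rec-1), and FPKM values do not show whether the gene was edited. The 6 B-cell markers summed to values from 584 to 877 FPKM over Jeko and the Rec-1 control and to 915 and 1032 in Rec-1 sgRNA, with none at 0 in any library. The 2 lymphoma markers CCND1 and SOX11 summed to between 452 and 826 FPKM in the same 4 libraries and to 4.30 and 3.04 in Rec-1 sgRNA. CCND1, cyclin D1, the defining marker of the disease, was 0.696 and 0.592 FPKM there. The 3 T-cell markers summed to at most 0.993 FPKM in those 4 and to 71.5 and 101 in Rec-1 sgRNA, almost all of it CD3D, while CD2 was at most 0.0291 in every library. Myeloid and epithelial markers summed to at most 1.97 FPKM in every library. These markers move with every Rec-1 sgRNA difference given below, and their part in it was not tested. In bulk RNA, a change in the mix of cells and a change of RNA per cell cannot be told apart. The deposited values summed to between 905778 and 1160110 FPKM per library, 2 small RNA genes (MIR6723 and MIR4461) held 21.6% to 36.9% of that, and the 35 members held 0.611% to 1.26%.

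All 35 members passed the filter of a mean of 1 FPKM over the 6 libraries that set which 11400 genes were tested. For 5 of them this rests on 1 side alone. PFKFB4 and NDRG1 had means of 0.467 and 0.830 FPKM over the Jeko libraries and the Rec-1 control and passed only through Rec-1 sgRNA, and BNIP3, ADM and EGLN3 had means of 0.219, 0.163 and 0.376 FPKM in Rec-1 sgRNA and passed only through the other 4. These 5 had to differ between those libraries to be tested, so their values are given as a description. Differences were tested with limma on log2(FPKM + 1), a scale that understates the change of low genes, and a gene was called at a Benjamini-Hochberg adjusted p under 0.05 over all tested genes. GAPDH was the most abundant member, with a mean of 4060 FPKM over the 6 libraries, and SLC2A3 the least, with 1.58. GAPDH, LDHA, PGK1, ENO1, TPI1, PKM, ALDOA and PGAM1 have processed copies elsewhere in the genome, and how reads shared with those were counted is not given in the sources used here, so their levels are uncertain.

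Because the Rec-1 control stands with Jeko, the libraries labelled with the 2 lines were compared through their sgRNA libraries, which uses neither control. Of the 35 members, 15 were called between the libraries labelled Rec-1 sgRNA and Jeko sgRNA, 10 higher and 5 lower in Rec-1, while 2947 of all 11400 tested genes were called (25.9%). The members' median difference was 0.50 on the log2 scale, and that of all tested genes was -0.03. Among the 15 glycolytic enzymes 4 were higher and 1 lower, 1 of 4 transporters and 2 of 3 flux regulators were higher, and of the 11 hypoxia-responsive genes 3 were higher and 4 lower. Neither lactate dehydrogenase was called. Among the 30 members with a mean of at least 1 FPKM on both sides, 8 were called higher and 2 lower. The calls of the other 5 are a description. No share was computed over all genes restricted in the same way, so the 25.9% is not matched to the count among the 30.

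**Figure D1:**
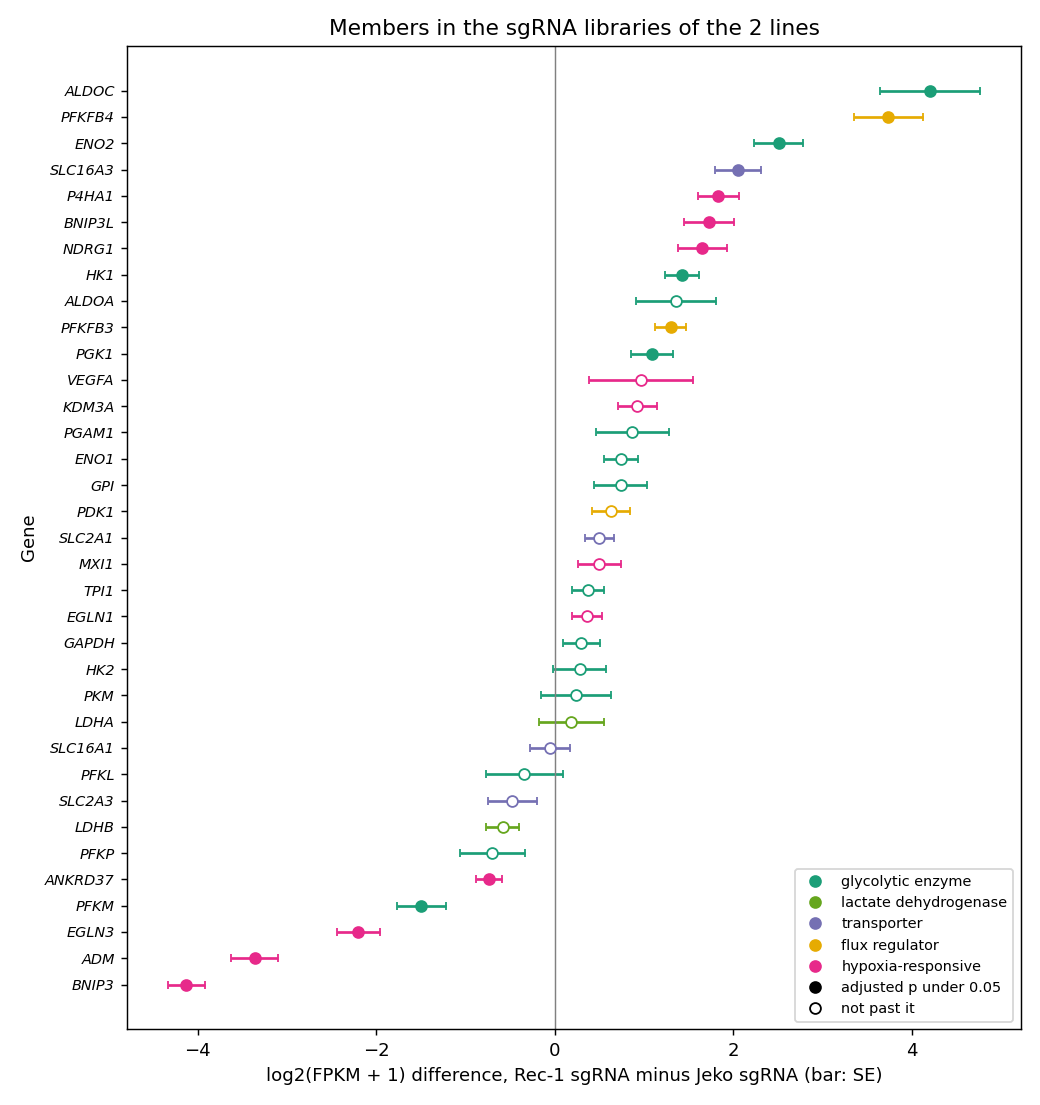
Difference of each member between the libraries labelled Rec-1 sgRNA and Jeko sgRNA on the log2(FPKM + 1) scale (x axis), with its standard error as a bar and genes on the y axis, coloured by role. Filled points passed an adjusted p under 0.05: ALDOC, PFKFB4 and ENO2 lie farthest to the right, and BNIP3, ADM and EGLN3 farthest to the left.

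Leaving out 1 of the 4 sgRNA libraries leaves 1 residual degree of freedom, and the count was then 3 without Jeko sgRNA 1, 4 without Jeko sgRNA 2, 3 without Rec-1 sgRNA 1 and 3 without Rec-1 sgRNA 2. It was 15 without the Jeko control and 15 without the Rec-1 control. Of the members still called without an sgRNA library, all but BNIP3L and ENO2 passed the filter on 1 side alone. Those calls, of BNIP3, ADM, EGLN3 and PFKFB4, are a description. With 1 line term over all 6 libraries, which puts the Rec-1 control with the Rec-1 sgRNA libraries, 0 members were called.

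The first step of glycolysis, the phosphorylation of glucose, is shared by HK1, the hexokinase found in most tissues, and HK2, its inducible relative. HK1 was 6.19 FPKM in the Jeko control, 6.60 with sgRNA 1 and 8.41 with sgRNA 2. The Rec-1 control had 7.30 FPKM, Rec-1 sgRNA 1 had 22.9 and Rec-1 sgRNA 2 had 20.6. Both libraries labelled Rec-1 sgRNA lay above the other 4. The difference from Jeko sgRNA was 1.43 (SE 0.19, limma adjusted p = 0.0151). HK2 was 7.53, 9.83 and 11.4 FPKM in the Jeko libraries and 10.8, 16.9 and 10.003 in the Rec-1 libraries, always in the order control, sgRNA 1, sgRNA 2. Its line groups overlapped, and the adjusted p was 0.518. HK1 made up 40.2% to 45.1% of the summed hexokinase FPKM in the 4 libraries outside Rec-1 sgRNA, and 57.6% and 67.3% in Rec-1 sgRNA 1 and 2.

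Phosphofructokinase makes the committed step and exists in liver (PFKL), muscle (PFKM) and platelet (PFKP) forms. PFKM was 57.4, 76.4 and 49.2 FPKM in the Jeko libraries and 47.9, 21.5 and 20.8 in the Rec-1 libraries. Of the 15 glycolytic enzymes, 3 had a negative log2 difference between Rec-1 sgRNA and Jeko sgRNA. PFKM was the 1 called lower (difference -1.49, SE 0.27, limma adjusted p = 0.0298), and its 2 groups of sgRNA libraries did not overlap. PFKL, between 30.04 and 64.5 FPKM, and PFKP, between 24.2 and 63.5, were not called, and both showed a wide gap between the guides of a line. The PFKM share of the 3 forms was 36.2% to 39.2% outside Rec-1 sgRNA and 17.5% and 27.7% in Rec-1 sgRNA 1 and 2. GPI, which precedes this step, was 68.9, 81.0 and 49.9 FPKM in Jeko and 57.3, 113 and 101 in Rec-1, with an adjusted p of 0.144.

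Aldolase splits the sugar, ALDOA being the general form and ALDOC the form best known from brain. ALDOC was 5.96, 6.19 and 2.62 FPKM in the Jeko libraries and 6.82, 141 and 61.3 in the Rec-1 libraries. The libraries labelled Rec-1 sgRNA stood far above the rest, and the Rec-1 control was at the Jeko level. The mean of the Rec-1 sgRNA libraries was 22.9 times that of Jeko sgRNA, a log2 difference of 4.20 (SE 0.56, limma adjusted p = 0.0147). ALDOA was 593, 533 and 345 FPKM in Jeko and 444, 1580 and 773 in Rec-1. Its sgRNA groups did not overlap, but the guides of each line differed widely, and the adjusted p was 0.0971. ALDOC held 0.752% to 1.51% of summed aldolase outside Rec-1 sgRNA and 8.17% and 7.35% within it.

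In the later steps of the pathway, PGK1 makes ATP and enolase yields phosphoenolpyruvate. PGK1 was 224, 226 and 161 FPKM in Jeko and 168, 420 and 396 in Rec-1, a difference of 1.09 between the sgRNA groups (SE 0.24, limma adjusted p = 0.0413). ENO2, the neuronal enolase, was 2.44, 2.56 and 2.34 FPKM in Jeko and 2.52, 23.7 and 14.7 in Rec-1. The 4 libraries outside Rec-1 sgRNA were nearly level with each other, and both Rec-1 sgRNA libraries lay above them. Its difference was 2.51 (SE 0.27, limma adjusted p = 0.00911), or 7.84 times the mean FPKM. ENO1, the general enolase, was 792, 728 and 643 FPKM in Jeko and 644, 1266 and 1044 in Rec-1, with an adjusted p of 0.057. ENO2 remained a small part of enolase, 0.307% to 0.390% outside Rec-1 sgRNA and 1.84% and 1.38% within it.

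The remaining enzymes did not pass between the lines. GAPDH, the enzyme that reduces NAD, was between 3039 and 4662 FPKM with overlapping sgRNA groups. TPI1, which interconverts the triose phosphates, was between 512 and 789 FPKM. PKM, pyruvate kinase, ranged from 292 to 598 FPKM and PGAM1 from 75.9 to 236. LDHA, the form that favours lactate, was 411, 519 and 285 FPKM in Jeko and 317, 383 and 502 in Rec-1, and its groups overlapped (adjusted p = 0.728). LDHB was 1487, 1461 and 1173 FPKM in Jeko and 1132, 833 and 916 in Rec-1. Both Rec-1 sgRNA libraries were the lowest for LDHB, with an adjusted p of 0.0943. The LDHA share of the pair was 19.5% to 26.2% outside Rec-1 sgRNA and 31.5% and 35.4% within it.

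**Figure D2:**
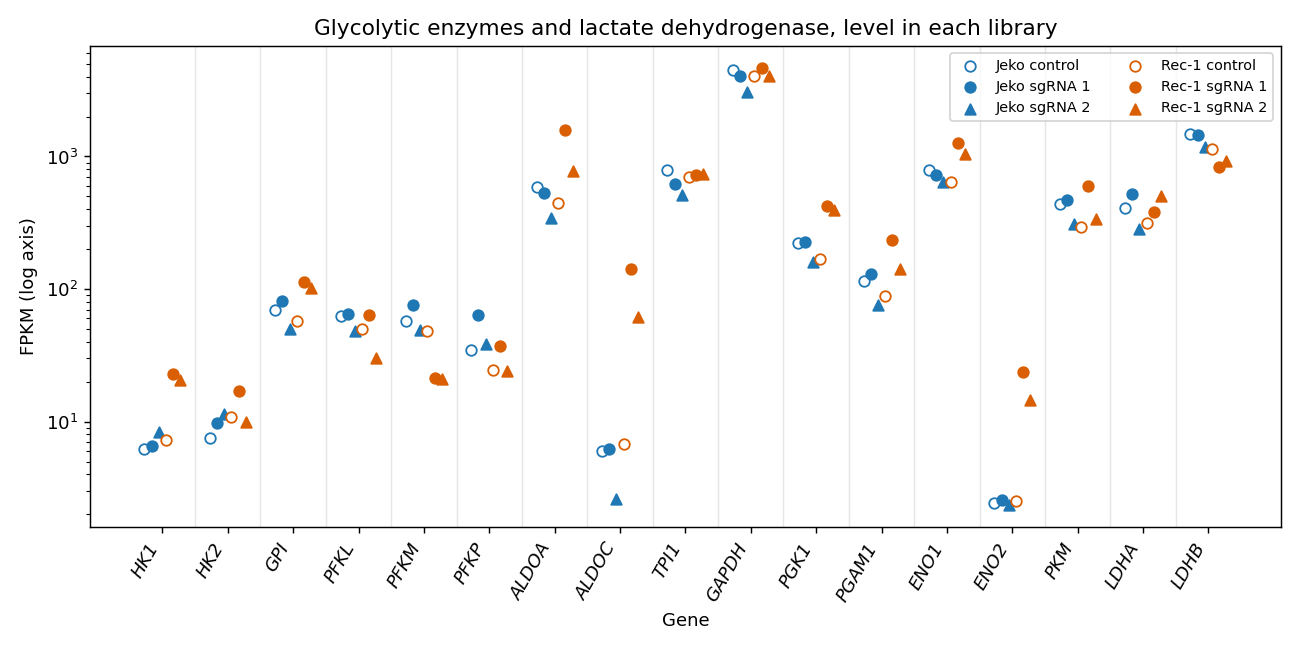
FPKM of the 15 glycolytic enzymes and 2 lactate dehydrogenases (log y axis) in each of the 6 libraries, blue for Jeko and orange for Rec-1, with open circles for controls, filled circles for sgRNA 1 and triangles for sgRNA 2. HK1, ALDOC, PGK1 and ENO2 lie above the other 4 libraries in both Rec-1 sgRNA libraries and PFKM lies below them, while the Rec-1 control sits with Jeko.

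Glucose enters through SLC2A1 and SLC2A3, and lactate leaves through SLC16A1 and SLC16A3, the second of which is the HIF-responsive exporter of glycolytic cells. SLC16A3 was 6.46, 5.06 and 7.42 FPKM in Jeko and 6.62, 32.7 and 25.1 in Rec-1. Both Rec-1 sgRNA libraries were above all others, and the difference was 2.05 (SE 0.26, limma adjusted p = 0.0131). SLC16A1 was 24.1, 35.6 and 41.6 FPKM in Jeko and 25.2, 32.5 and 42.3 in Rec-1, with overlapping groups and a difference of -0.05 (SE 0.22). SLC16A3 took 50.2% and 37.3% of the summed FPKM of the 2 exporters in Rec-1 sgRNA, against 12.4% to 21.1% elsewhere. SLC2A1 was 7.93, 9.20 and 9.91 FPKM in Jeko and 11.4, 13.4 and 14.6 in Rec-1. All 3 Rec-1 libraries lay above all 3 Jeko libraries, but the difference between the sgRNA groups had an adjusted p of 0.0932. SLC2A3 was between 0.969 and 2.60 FPKM.

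Among the regulators, PFKFB3 and PFKFB4 make and remove the activator of phosphofructokinase. PDK1 inhibits pyruvate dehydrogenase, which limits the use of pyruvate in the mitochondrion. PFKFB4 was 0.506, 0.229 and 0.160 FPKM in Jeko and 0.973, 21.7 and 10.2 in Rec-1. It was under 1 FPKM in the 3 Jeko libraries and the Rec-1 control and above 10 in both Rec-1 sgRNA libraries, whose mean was 82.1 times that of Jeko sgRNA. Its difference was 3.74 (SE 0.38), a description, because the gene passed the filter only through Rec-1 sgRNA. PFKFB3 was 2.69, 4.19 and 3.55 FPKM in Jeko and 3.24, 10.2 and 11.8 in Rec-1, a difference of 1.30 (SE 0.17, limma adjusted p = 0.0140). PFKFB4 made up 4.31% to 23.1% of the pair outside Rec-1 sgRNA and 68.0% and 46.5% within it. PDK1 was 7.85, 10.5 and 14.2 FPKM in Jeko and 9.50, 20.2 and 18.8 in Rec-1, and was not called between the lines (adjusted p = 0.10005).

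**Figure D3:**
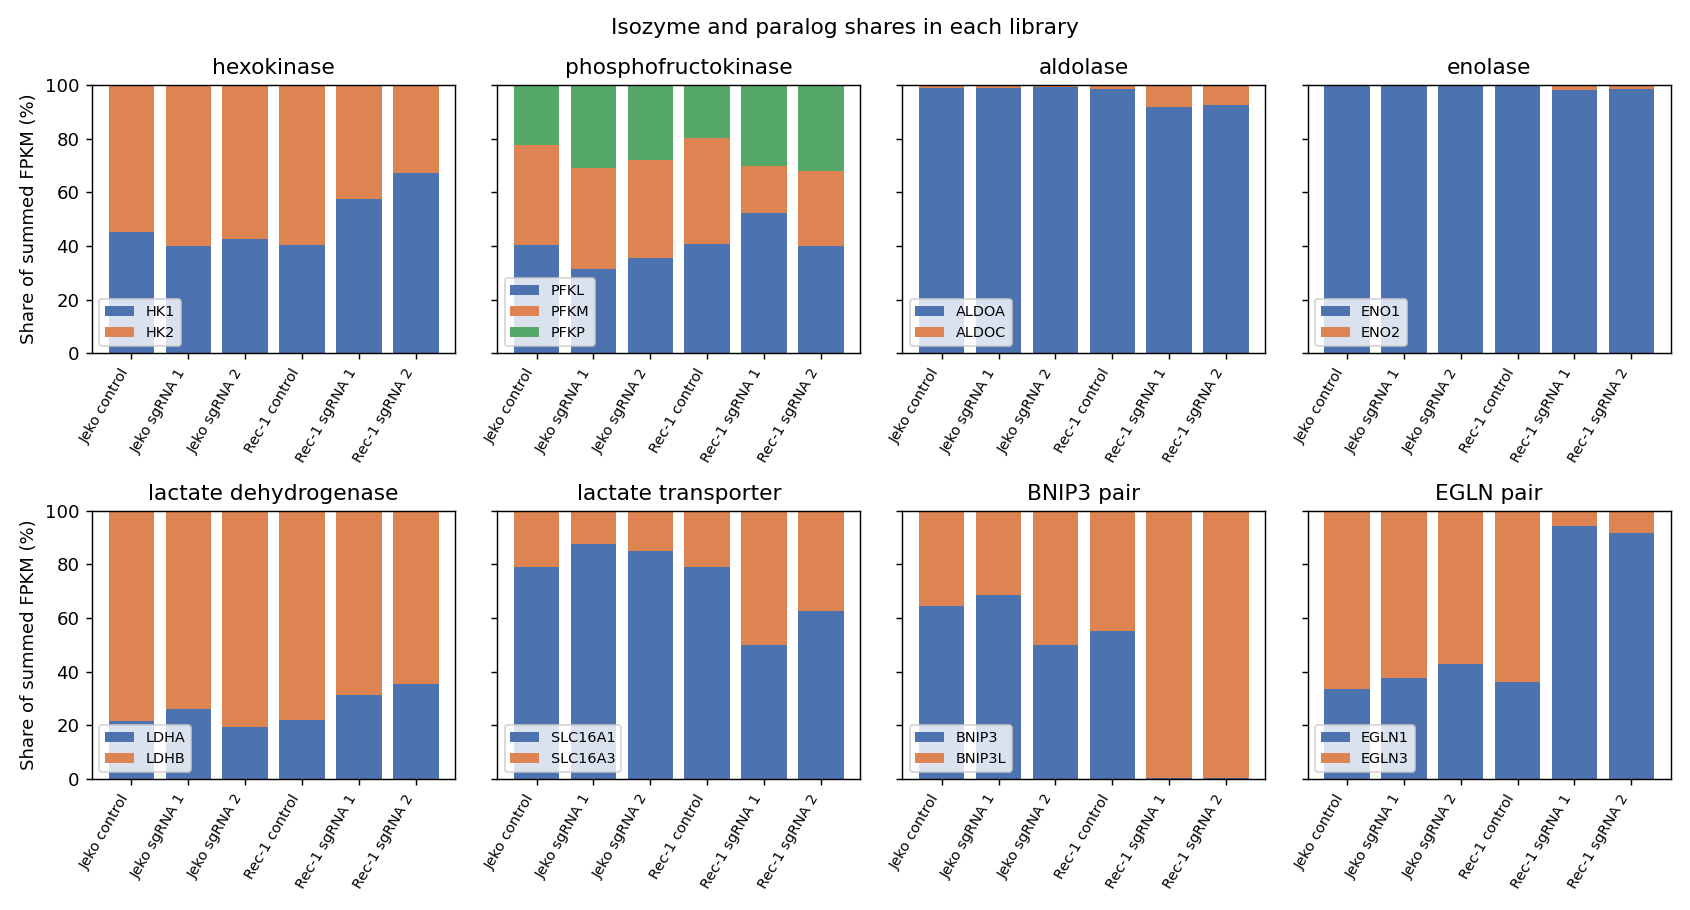
Share of each isozyme or paralog in the summed FPKM of its family (y axis, percent) in the 6 libraries (x axis). HK1, ALDOC, LDHA and SLC16A3 take larger shares in the 2 Rec-1 sgRNA libraries, PFKM a smaller one, and BNIP3 and EGLN3 nearly disappear from their pairs.

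The hypoxia-responsive genes went both ways. BNIP3, a receptor for the removal of mitochondria, was 23.0, 23.3 and 17.6 FPKM in Jeko and 23.6, 0.268 and 0.169 in Rec-1. It was level in 4 libraries and close to 0 in both libraries labelled Rec-1 sgRNA, where its mean was lower by a factor of 93.6 than in Jeko sgRNA. The log2 difference was -4.13 (SE 0.20), a description, because BNIP3 passed the filter only through the libraries outside Rec-1 sgRNA. BNIP3L, its paralog with the same function, was 12.7, 10.8 and 17.6 FPKM in Jeko and 19.1, 47.0 and 49.3 in Rec-1. It moved the other way by 1.73 (SE 0.28, limma adjusted p = 0.0227), so BNIP3 made up 50.1% to 68.4% of the pair outside Rec-1 sgRNA and 0.567% and 0.342% within it.

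ADM encodes the vasodilator adrenomedullin and was 10.8, 13.7 and 8.64 FPKM in Jeko and 29.7, 0.235 and 0.0904 in Rec-1. The Rec-1 control was the highest library and the 2 Rec-1 sgRNA libraries the lowest. Between the sgRNA groups the difference was -3.36 (SE 0.26), with means apart by a factor of 68.6. EGLN3, an oxygen-sensing prolyl hydroxylase, was 6.46, 6.60 and 4.25 FPKM in Jeko and 4.24, 0.283 and 0.469 in Rec-1, a difference of -2.20 (SE 0.24). ADM and EGLN3 passed the filter only through the libraries outside Rec-1 sgRNA, so their differences are a description. EGLN1, the main hydroxylase of this family, was between 2.38 and 5.08 FPKM and was not called. EGLN3 held 57.0% to 66.4% of the pair outside Rec-1 sgRNA and 5.74% and 8.45% within it. ANKRD37, an ankyrin repeat protein, was 2.54, 2.85 and 2.45 FPKM in Jeko and 4.14, 1.22 and 1.156 in Rec-1, the smallest called difference at -0.74 (SE 0.14, limma adjusted p = 0.0337).

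Of those called higher, P4HA1, a subunit of the collagen prolyl hydroxylase, was 8.59, 9.36 and 13.02 FPKM in Jeko and 12.2, 45.2 and 38.9 in Rec-1. Its difference was 1.83 (SE 0.23, limma adjusted p = 0.0130), with both Rec-1 sgRNA libraries above the rest. NDRG1, a stress-responsive gene, was 1.03, 0.225 and 0.838 FPKM in Jeko and 1.22, 4.36 and 3.17 in Rec-1, and differed by 1.66 (SE 0.27). That value is a description, because NDRG1 passed the filter only through Rec-1 sgRNA. KDM3A, a histone demethylase, was 7.31, 10.6 and 14.1 FPKM in Jeko and 12.3, 22.3 and 26.2 in Rec-1. It lay just outside the threshold with a difference of 0.93 (SE 0.22, limma adjusted p = 0.0503). VEGFA, the angiogenic factor, ranged from 7.69 to 33.99 FPKM with overlapping lines, and MXI1, an antagonist of MYC, from 14.4 to 28.4, and neither was called.

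**Figure D4:**
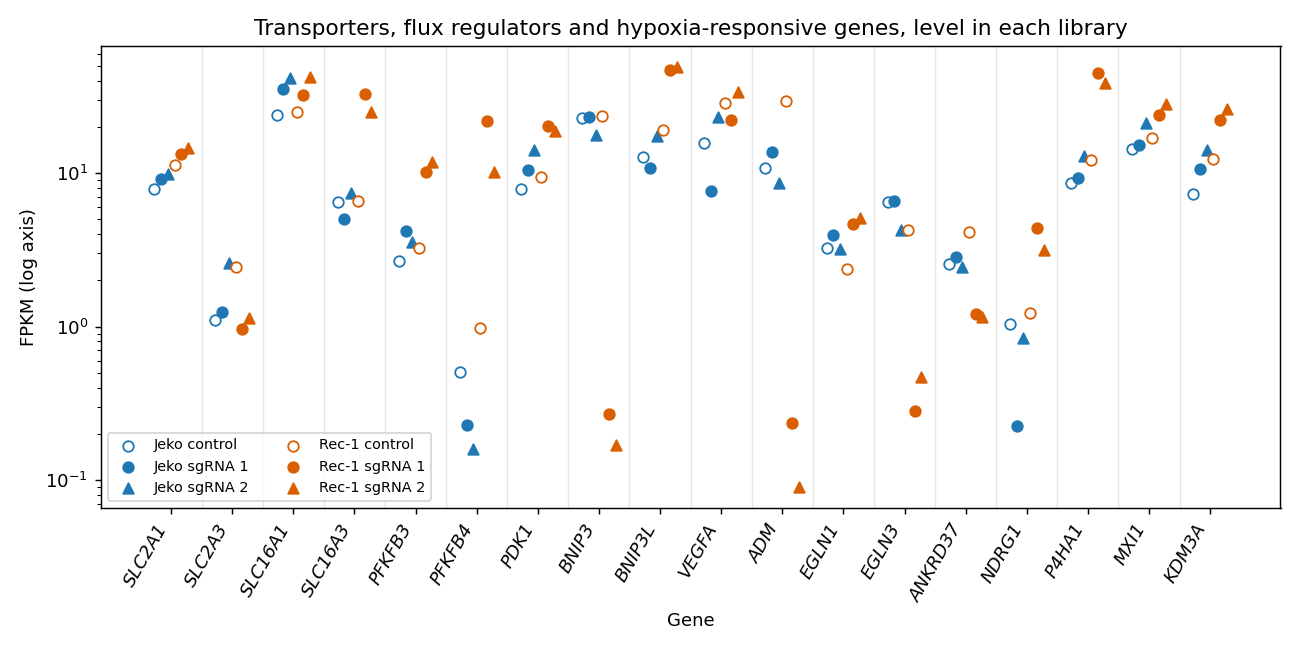
FPKM of the transporters, flux regulators and hypoxia-responsive genes (log y axis) in each library, coloured by line, with open circles for controls, filled circles for sgRNA 1 and triangles for sgRNA 2. BNIP3, ADM and EGLN3 drop under 0.5 FPKM only in the Rec-1 sgRNA pair, and PFKFB4 above 10 FPKM there.

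The genes of these members lie as follows on GRCh37, the build called hg19, and each is protein-coding. BNIP3 lies on chromosome 10 from 133781188 to 133795471 (minus strand), ADM on chromosome 11 from 10326620 to 10328944 (plus), and EGLN3 on chromosome 14 from 34393433 to 34931980 (minus). ALDOC lies on chromosome 17 from 26900133 to 26903966 (minus), ENO2 on chromosome 12 from 7022909 to 7032861 (plus), PFKFB4 on chromosome 3 from 48555117 to 48599448 (minus), and PFKM on chromosome 12 from 48498922 to 48540187 (plus). These positions and those of the promoters are on different builds and were not converted.

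Within Jeko, where the NR4A1 values lay below the control in both sgRNA libraries (limma adjusted p = 0.748), no member was called. Limma called 0 of 35 members, with a lowest adjusted p of 0.458, against 50 of 11400 tested genes called (0.439%). At an unadjusted p under 0.05 were 0 members and 1287 of the 11400 tested genes. The members' median difference was -0.06 and that of all tested genes was 0. No member was past 2-fold from the control in both guides, which 346 of all tested genes were (3.04%). The control is 1 library and is assumed in this fit to vary as the sgRNA libraries do.

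The members with the same sign under both guides and the largest smaller difference were SLC16A1, KDM3A and PDK1 above the control and TPI1, PFKFB4 and ALDOA below it. SLC16A1 was above the Jeko control by 0.54 and 0.76 on the log2 scale in sgRNA 1 and 2, KDM3A by 0.48 and 0.86, and PDK1 by 0.38 and 0.78. TPI1 differed by -0.35 and -0.62, ALDOA by -0.15 and -0.78, and PFKFB4, near the low end of the scale, by -0.29 and -0.38. The guides differed in direction for the group as a whole. With sgRNA 1, 25 of 35 members were above the control (median 0.08), and with sgRNA 2, 14 were (median -0.15). Of the 15 glycolytic enzymes, 11 were above the control with sgRNA 1 and 12 below it with sgRNA 2.

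Differences from the Jeko control also followed transcript length across all protein-coding genes. With these genes in 5 equal groups by length, the shortest ran from 295 to 1742 nt, and there the median difference was -0.31 and -0.36 for sgRNA 1 and 2, while in the longest group it was 0.37 and 0.36. The 8 members in the shortest group, among them GAPDH, TPI1 and ALDOA, had medians of -0.0034 and -0.47. PDK1 and HK2, the 2 members in the longest group, had medians of 0.36 and 0.66. After adjustment of each library for transcript length the members' median in Jeko was 0.07 and 22 of 35 were positive, against -0.06 and 17 without it, so the sign of the group's median depends on this choice. No member was called in Jeko in either case. Differences from the library labelled Rec-1 control also rose with length over the same groups. From the shortest to the longest group their medians ran from -0.22 to 0.15 for sgRNA 1 and from -0.25 to 0.22 for sgRNA 2.

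**Figure D5:**
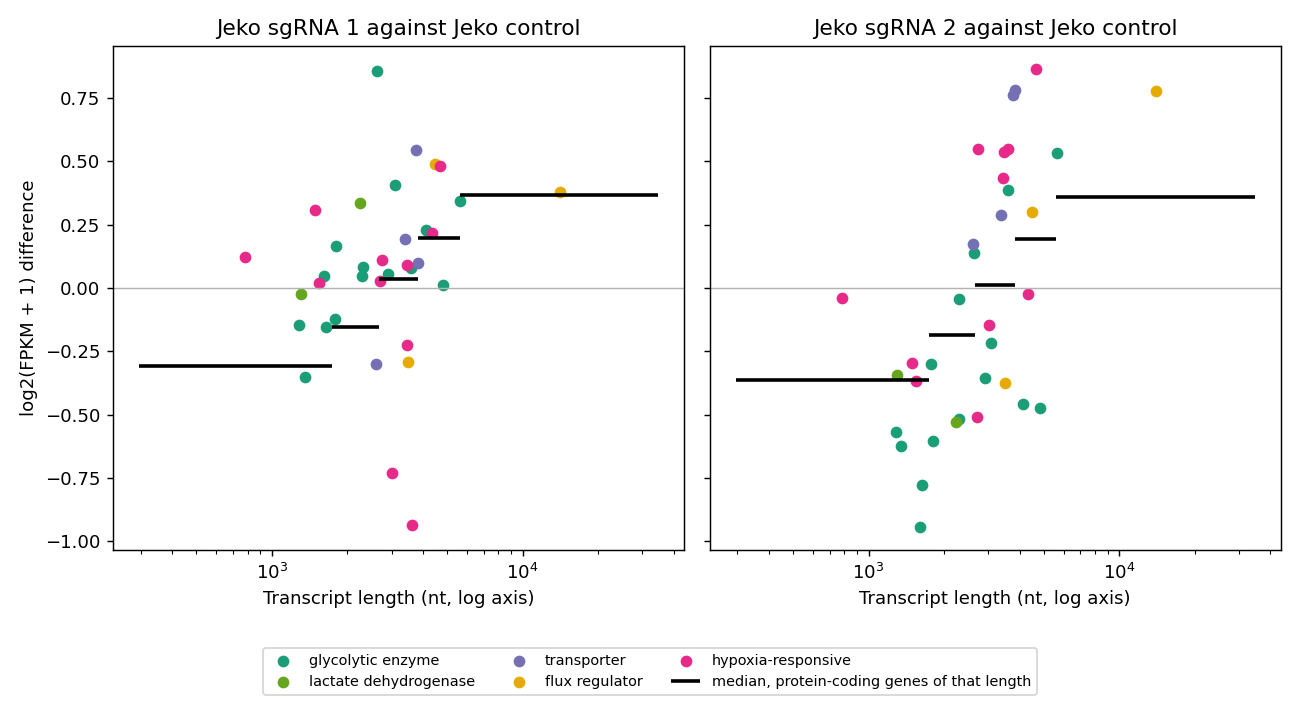
Difference of each member from the Jeko control on the log2(FPKM + 1) scale (y axis) against its transcript length in nt (log x axis), for sgRNA 1 and sgRNA 2, coloured by role. Black lines are the medians of all protein-coding genes in 5 length groups, from -0.31 to 0.37 for sgRNA 1 and from -0.36 to 0.36 for sgRNA 2.

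In Rec-1, the comparison of the sgRNA libraries with the library labelled control rests on that 1 library, which resembles Jeko. Of the 35 members 11 were called, 7 higher and 4 lower, against 2184 of 11400 tested genes (19.2%), and the members' median difference was 0.62. Of the 30 members above the minimum on both sides 6 were called higher and 1 lower, and no share over all genes was computed with that restriction. Those higher were HK1, ALDOC, ENO2, SLC16A3, PFKFB3, PFKFB4 and P4HA1, and those lower were BNIP3, ADM, EGLN3 and ANKRD37. ALDOC differed by 3.59 (limma adjusted p = 0.0389). ADM differed by -4.72 and BNIP3 by -4.34, a description, because both passed the filter only through the libraries outside Rec-1 sgRNA. A difference past 2-fold in both guides was seen for 14 of 35 members, against 2651 of all tested genes (23.3%). These are the 11 called genes with PGK1 and BNIP3L above the control and PFKM below it. Among the 14, PFKFB4, BNIP3, ADM and EGLN3 passed the filter on 1 side alone, so they enter this count as a description. This comparison shares the Rec-1 sgRNA libraries with the comparison of lines above. The count of 11 became 6 with no filter on low values, and it fell when any 1 sgRNA library was left out. Of the members still called without an sgRNA library, all but ENO2 and ANKRD37 passed the filter on 1 side alone. Those calls, of BNIP3, ADM, EGLN3 and PFKFB4, are a description.

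The difference between sgRNA and control was tested for a difference between the lines by the interaction. For the members, 2 were called, BNIP3 (-4.16, SE 0.35) and ADM (-4.73, SE 0.46), against 791 of 11400 tested genes (6.94%). Both are among the 5 members that passed the filter on 1 side alone, so their values are a description, and 0 of the other 30 were called. An unadjusted p under 0.05 was seen for 14 of 35 members and for 2498 of the 11400 tested genes. BNIP3 was near its control in Jeko and far below it in Rec-1, and so was ADM. With lengths adjusted 4 members were called and with protein-coding genes only, a choice made after seeing the data, 6. With an sgRNA library left out, no member other than ADM or PFKFB4 was called. Both passed the filter on 1 side alone, so these calls are a description.

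Pooled over both lines, the 4 sgRNA libraries against the 2 controls gave 0 called members with limma, against 28 of 11400 tested genes called (0.246%). At an unadjusted p under 0.05 were 7 of the 35 members and 2410 of the 11400 tested genes. KDM3A had the lowest adjusted p, 0.177, at a difference of 0.79, and it was above its own control in each of the 4 sgRNA libraries. BNIP3 and ADM differed by -2.26 and -2.36 in this fit with limma adjusted p of 0.237 and 0.251, while the own-line differences were near 0 in Jeko and negative in Rec-1. Without the Jeko control 11 members were called, and the sgRNA term is then set by the Rec-1 control alone.

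Between the 2 libraries labelled control limma called 0 of 35 members, against 59 of 11400 tested genes (0.518%). At an unadjusted p under 0.05 were 1 member (ADM, 1.37) and 218 of the 11400 tested genes. The members' median difference between these controls was 0.04. Each side is 1 library.

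The guides were also compared with each other in the 4 sgRNA libraries. Limma called 0 of 35 members, 7 at an unadjusted p under 0.05 and a lowest adjusted p of 0.715, and 0 of 11400 tested genes (0%), 656 of them at an unadjusted p under 0.05. Among the 15 glycolytic enzymes 13 were lower in sgRNA 2 than in sgRNA 1 in Jeko (median -0.49) and 14 in Rec-1 (median -0.60), while all tested genes had medians of -0.02 and 0.03. ALDOC showed the largest difference, -1.09 (SE 0.19, limma adjusted p = 0.715). The summed FPKM of the 15 enzymes were 7705, 7082 and 5293 in the Jeko control, sgRNA 1 and sgRNA 2, and 6610, 9924 and 7719 in the Rec-1 libraries. In both lines sgRNA 2 was below sgRNA 1, and the enzymes share their libraries. Relative to the Jeko control, depth was 0.872 in Jeko sgRNA 1, 1.103 in Jeko sgRNA 2 and 0.687 in Rec-1 sgRNA 2, with no estimate for Rec-1 sgRNA 1, and its part in these differences was not tested.

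The HIF pathway, known to control many of the members, was read from a list of 6 genes, 5 of them tested. HIF1A was 7.86, 18.5 and 15.3 FPKM in Jeko and 7.82, 28.3 and 26.0 in Rec-1. It was higher in all 4 sgRNA libraries than in both controls, and was called in Rec-1 against its control (1.68, limma adjusted p = 0.0191) but not in Jeko (1.01, limma adjusted p = 0.389) or between the sgRNA groups of the lines (adjusted p = 0.0718). EPAS1, the other alpha subunit, was listed at 0 in 5 libraries and at 0.0094 FPKM in Rec-1 sgRNA 1. ARNT was between 8.70 and 17.5 FPKM, VHL between 17.8 and 29.8, EGLN2 between 22.6 and 36.3 and HIF1AN, the asparaginyl hydroxylase, between 4.79 and 6.78, and none of these was called in any comparison.

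Other genes of these pathways were counted between Rec-1 sgRNA and Jeko sgRNA, where 25.9% of all tested genes were called. Of 24 further hypoxia targets 15 were tested, 7 were higher and 1 lower. CA9 and FUT11 among them passed the filter only through Rec-1 sgRNA, and of the other 13 tested targets 6 were higher and 1 lower. CA9, the carbonic anhydrase much used as a hypoxia marker, was listed at 0 in the Jeko libraries and the Rec-1 control and was 11.9 and 4.42 FPKM in Rec-1 sgRNA 1 and 2. PLOD1 was 9.73 and 9.70 FPKM in Jeko sgRNA and 47.3 and 37.9 in Rec-1 sgRNA. HILPDA was 30.5 and 21.6 FPKM in Jeko sgRNA and 9.63 and 8.004 in Rec-1 sgRNA. Of 12 further isozymes and enzymes that act on the same steps 4 were tested. LDHC, a lactate dehydrogenase best known from testis, and FBP1, the enzyme of gluconeogenesis that opposes phosphofructokinase, were at most 0.0345 FPKM outside Rec-1 sgRNA and passed the filter only through it, which fixed their direction. They had means of 5.66 and 4.41 FPKM there, and 0 of the other 2 were called. Of 12 genes of pyruvate entry 11 were tested and 1, PDK2, was lower, at 19.6 and 19.5 FPKM in Jeko sgRNA and 9.92 and 8.67 in Rec-1 sgRNA. Of 7 genes of the pentose phosphate pathway 1, PGLS, was higher. Of 7 genes of glycogen turnover 3 were higher, with PYGL, liver glycogen phosphorylase, at 1.68 and 0.982 FPKM in Jeko sgRNA and 25.6 and 23.3 in Rec-1 sgRNA. In Jeko against its control, where 0.439% of all tested genes were called, limma called 0 genes of these lists. An unadjusted p under 0.05 was seen for 1 gene each of the HIF pathway, further hypoxia target and glycogen lists. Of all 11400 tested genes, 1287 had one.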

How the data were processed

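The authors deposited 1 table of FPKM values for the 6 libraries, per the file headers, with 25277 gene rows named by symbol. TopHat and the build hg19 are named per the submitters' processing notes. The program that computed FPKM, the annotation, the handling of reads with several matches and the use of strand are not given in the sources used here. Of the symbols, 28 had become calendar dates and 2 occur in more than 1 row, none of them a member. No counting interval was computed, because the absolute depth of the libraries is unknown. Relative depth was read from the commonest ratio of the lowest values between 2 libraries.

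Values were analysed as log2(FPKM + 1) for the 11400 genes whose mean reached 1 FPKM, using R 4.3.3 and limma 3.58.1 with a mean-variance trend in eBayes. A model of 4 groups took its spread from the 2 guide pairs, so that each lone control is assumed to vary like the sgRNA libraries. The pooled test had line and sgRNA as terms, and the guide test used the 4 sgRNA libraries with line as a term. The Benjamini-Hochberg adjustment ran over all genes tested, with 0.05 as the threshold, and the fits were tested on simulated data. Python 3.11.15 with numpy 2.4.6, pandas 2.3.3 and matplotlib 3.10.9 did the rest. Transcript length is that of the GENCODE annotation on GRCh37.

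All members are named. Within Jeko the 3 in each direction with the same sign in both guides and the largest smaller difference are singled out, and from each further list at most 3 genes a direction, by the same rule over all pairs of libraries compared. The members and the lists were chosen with earlier results of these data known. Alternatives were a pseudocount of 0.1, a minimum mean of 5 FPKM and no minimum, quantile normalization, rescaling without small RNA genes, adjustment for transcript length, eBayes without the trend, the guide number as a replicate block, 1 line term over all libraries, each library left out, and, added after seeing the data, protein-coding genes only.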

Additional observations from a re-analysis of the deposited data

Results flagged for a closer look

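Among the members and the further lists, the limma interaction of line and sgRNA was called for 5 genes. Over all tested genes it was called for 791 of 11400 (6.94%), and each value here rests on the 1 library labelled Rec-1 control. The called members were BNIP3, with a Rec-1 minus Jeko value of -4.16 on the log2 scale, and ADM, with -4.73. Both passed the filter on low values only through the libraries outside Rec-1 sgRNA, so their 2 values are a description. Outside the members the called genes were LDHC with 2.73, FBP1, an enzyme of gluconeogenesis, with 2.37 and PYGL with 4.79 (limma adjusted p = 0.0104). LDHC and FBP1 passed the filter only through Rec-1 sgRNA, where they are high, so these 2 values are a description. LDHC was listed at 0 in the Jeko libraries and the Rec-1 control and was 4.95 and 6.36 FPKM in Rec-1 sgRNA 1 and 2. PYGL was 5.92, 1.68 and 0.982 FPKM in the Jeko control, sgRNA 1 and sgRNA 2, and 1.76, 25.6 and 23.3 in the Rec-1 libraries.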

How the results depend on the processing

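Counts of members called are given here, and they include members that passed the filter on 1 side alone, whose calls are a description. No called result changed sign under any alternative run. Over both lines 0 members were called, and leaving out each library gave 0 to 11. For Rec-1 sgRNA against its control, 11 became 6 with no filter on low values and 2 to 11 with a library left out. The interaction count of 2 became 4 with adjustment for transcript length, 6 with protein-coding genes only (chosen after seeing the data), and 0 to 1 with a library left out. For Rec-1 sgRNA against Jeko sgRNA, 15 became 0 with 1 line term over all 6 libraries and 3 to 15 with a library left out. The causes were not tested, except that a fit without an sgRNA library has 1 residual degree of freedom. Within Jeko, between the controls and between the guides the count was 0 under each alternative that gave a value. Without the Rec-1 control its own comparisons have no value, and without an sgRNA library the guide test has none.

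With guide numbers entered as a replicate block the counts were 0 pooled, 0 in Jeko, 11 in Rec-1, 3 for the interaction, 16 between the sgRNA groups of the lines and 0 between the controls. Between the lines ANKRD37 was lost and ALDOA and KDM3A were gained. Counts over all tested genes went from 28 to 9 for the pooled test and from 791 to 428 for the interaction of line and sgRNA. Between the lines, deviations of guides with 1 number correlated at 0.0998 (every gene tested) and 0.207 (protein-coding), and nothing in the labels says that a guide number marks a shared culture, batch or day.

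Of 58 single-gene results called, alternatives without a left-out library kept the call 485 times and lost it 52 times. Those with a library left out kept it 151 times and lost it 163 times. The 58 results include those of ADM, BNIP3, EGLN3, PFKFB4, NDRG1, CA9, FUT11, LDHC and FBP1, which passed the filter on 1 side alone. Their calls are a description, and these tallies were not made without them. The unknown depth limits what can be said of values near 0, such as BNIP3, ADM and EGLN3 in Rec-1 sgRNA, for which no detection limit was set.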
